A study of Mus musculus with 10 samples.

Results

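Chemokines, interleukins and TNF ligands were examined in stromal cells of mouse bone, as the rows of a gene expression table whose symbol named a Ccl or Cxcl chemokine, Cx3cl1, an interleukin, Il1rn, Lif, Clcf1, Osm, Tslp, Flt3l, Tnf or a Tnfsf ligand. The rule matched 49 of 15078 genes, and 4 of them (Cxcl12, Il7, Il34 and Tnfsf11) were excluded by the rule, which left 45 genes. Of these, 39 had a mean of at least 10 normalised reads over the 10 libraries and were tested, and 6 did not. Tnf matched no row of the table.

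Chemokines are small secreted proteins that guide leukocytes through receptors coupled to G proteins, and many of their genes lie side by side in clusters. Interleukins and TNF ligands act on receptors of their own families, and many of these genes are switched on by the transcription factor NF-kB during injury and inflammation. In bone, stromal cells are among the sources of such signals, through which they retain or recruit blood cells and act on the formation and resorption of bone.

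RNA of sorted CD51+CD200+ cells was sequenced in 10 libraries. The 4 graft BM-MSC libraries hold marrow mesenchymal stem cells of femurs from transgenic donors labelled POSTN-CRE, in which tamoxifen switches on the red protein Tomato in cells that use the Postn (periostin) gene. These femurs were placed under the skin of wild-type hosts, the hosts were given tamoxifen, and Tomato+ cells were sorted at 5 months. The BM-MSC group (n = 3) and the P-SSC group (n = 3, periosteal skeletal stem cells) came from untreated wild-type mice labelled as steady-state hosts, and these 6 libraries are shared with another series. Postn is also used by osteoblasts and fibroblasts, so Tomato does not mark periosteal stem cells alone, and the blood cells of a graft come from its host. The graft differed from the other groups in genotype, tamoxifen, transplantation, the sort for Tomato and the 5 months spent in a host. These differed together and cannot be told apart. BM-MSC 2+4 and P-SSC 2+5 each join a pair of mice, and the remaining libraries are numbered as in the labels. Values below are given in the order graft BM-MSC 1, 2, 3 and 4, BM-MSC 1, 2+4 and 3, and P-SSC 1, 2+5 and 4.

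The libraries held 15415421 to 25223295 reads. Genes with over 65% GC (n = 51) stood high in the 4 graft BM-MSC libraries and in P-SSC 4 (1.52 to 2.80 log2 units above genes of 50 to 60% GC, centred over libraries) and low in the other 5 libraries (-1.81 to -1.51). This split, called the GC-rich level below, is not named in the labels, and it cannot be told apart from the graft in the comparison with BM-MSCs. The gate removed CD45+, Ter119+ and CD31+ cells, but the 6 pan-leukocyte markers summed to 1142 to 4293 normalised reads in graft BM-MSCs, 3230.2 to 5249.8 in BM-MSCs and 12.6 to 177 in P-SSCs. Ptprc, which encodes CD45, was at 0, 0, 196, 2.59, 16.7, 78.0, 62.1, 0, 0 and 0 in the 10 libraries. The 9 neutrophil markers summed to 5624 to 110589, 29567 to 87895 and 12.6 to 110.1 in the same order of groups, with the highest sum in graft 3. The sorting genes Cd200 and Itgav were detected in every library. In bulk RNA, fewer cells of a type and less RNA per cell cannot be told apart.

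Sequence upstream of the start site was found in RefSeq (GRCm38.p6) for 30 of the 45 genes. Shown are the 250 bases before the start of 5 genes that held a match and had differences described below: Cxcl1 and Il6 were highest in P-SSCs, Ccl9 and Il1rn in both marrow groups and Cxcl14 in the graft. Capitals mark matches on either strand to the NF-kB consensus, to the AP-1 letters TGANTCA or to an interferon response motif (GAAA, any 2 bases, GAAA), and where matches on both strands overlap they run together.
Cxcl1, chr5:90890995-90891244, plus strand: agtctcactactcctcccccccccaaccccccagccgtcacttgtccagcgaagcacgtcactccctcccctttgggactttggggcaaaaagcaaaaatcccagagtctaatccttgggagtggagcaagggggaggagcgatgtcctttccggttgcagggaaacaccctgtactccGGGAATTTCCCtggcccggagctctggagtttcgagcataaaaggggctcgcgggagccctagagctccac
Il6, chr5:30012864-30013113, plus strand: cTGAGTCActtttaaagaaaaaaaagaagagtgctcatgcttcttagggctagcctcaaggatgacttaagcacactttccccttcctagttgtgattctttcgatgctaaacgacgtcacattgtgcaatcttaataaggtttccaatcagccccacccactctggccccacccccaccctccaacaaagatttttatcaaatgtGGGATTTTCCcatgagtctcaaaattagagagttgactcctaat
Ccl9, chr11:83578637-83578886, minus strand: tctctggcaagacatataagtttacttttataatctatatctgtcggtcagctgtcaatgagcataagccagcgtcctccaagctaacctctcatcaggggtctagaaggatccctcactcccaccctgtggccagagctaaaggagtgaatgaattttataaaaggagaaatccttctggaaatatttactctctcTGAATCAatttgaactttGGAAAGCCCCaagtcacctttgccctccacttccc
Il1rn, chr2:24336610-24336859, plus strand: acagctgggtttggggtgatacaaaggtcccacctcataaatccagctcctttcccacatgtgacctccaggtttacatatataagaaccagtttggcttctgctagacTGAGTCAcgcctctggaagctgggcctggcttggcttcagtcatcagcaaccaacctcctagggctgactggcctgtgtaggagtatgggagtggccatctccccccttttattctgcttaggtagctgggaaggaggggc
Cxcl14, chr13:56296552-56296801, minus strand: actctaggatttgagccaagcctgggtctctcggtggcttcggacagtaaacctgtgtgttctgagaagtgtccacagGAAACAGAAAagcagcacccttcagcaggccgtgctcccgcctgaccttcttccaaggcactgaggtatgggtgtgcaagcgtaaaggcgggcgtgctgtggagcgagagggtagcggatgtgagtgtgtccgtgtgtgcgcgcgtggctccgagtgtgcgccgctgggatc
In Cxcl1 the capitals hold NF-kB letters on both strands, in Il6 the AP-1 letters stand first and the NF-kB letters second, in Ccl9 the order is the same, in Il1rn they are AP-1 letters and in Cxcl14 interferon response letters. NF-kB letters were present in 6 of the 30 upstream regions (20%; Cxcl1, Cxcl2, Cxcl3, Cxcl10, Il6 and Ccl9), against 3.741% of 27025 upstream regions of the same length. AP-1 letters were present in 8 (26.67% against 6.812%) and interferon response letters in 4 (13.33% against 3.06%; Cxcl10, Cxcl14, Ccl19 and Flt3l). The genes with NF-kB letters did not share a direction: Cxcl1 and Il6 were higher in P-SSCs than in BM-MSCs and Ccl9 was lower, while Cxcl2 and Cxcl10 did not pass the test and Cxcl3 was not tested. Cxcl1, Cxcl2 and Cxcl3 lie near each other on chromosome 5 and hold the same NF-kB letters, so the 6 regions are not independent. Of the called genes with sequence, Ccl8, Ccl17, Cxcl9, Cx3cl1, Il17d and Il33 held no match to any of these motifs. A match is a description of the letters, not a binding site.

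Each log2 difference is that of log2(normalised reads + 1), taken as P-SSC minus BM-MSC at steady state and as graft minus the other group for the graft, with its SE. P-SSCs and marrow stroma at steady state differed in 15 of the 39 tested genes (limma, Benjamini-Hochberg adjusted p under 0.05), where 9.15% of all genes tested were called. Higher in P-SSCs were 7 genes (Ccl7, Ccl8, Ccl11, Cxcl1, Il6, Il33 and Tnfsf9; all genes, 4.57%). Lower were 8 genes (Ccl9, Ccl17, Ccl19, Cxcl9, Cx3cl1, Il1rn, Il15 and Osm; all genes, 4.58%). Values of P-SSCs and BM-MSCs did not overlap for 24 genes, where 30.9% of all genes tested did not overlap, with 12 genes higher (all genes, 15.1%) and 12 lower (15.8%). At an unadjusted p under 0.05 in limma there were 23 genes (all genes, 18.7%). Leaving out BM-MSC 2+4 or BM-MSC 3 lowered the 15 calls to 9. With the GC-rich level as a term in the fit, the calls of Ccl17, Cxcl9, Il15 and Il33 were lost. In the 5 libraries with a low GC-rich level, a fit chosen after seeing the data, 18 genes were called and 14 of the 15 were among them, without Cxcl9.

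Graft BM-MSCs differed from P-SSCs in 12 genes, where 18.1% of all genes tested were called. Higher in the graft were 8 genes (Ccl9, Ccl19, Cx3cl1, Cxcl9, Cxcl14, Cxcl16, Il1rn and Il17d; all genes, 6.08%), and lower were 4 genes (Ccl8, Ccl11, Il33 and Tnfsf9; all genes, 12.0%). Values did not overlap for 15 genes, where 26.6% of all genes did not overlap, with 10 genes higher in the graft (all genes, 8.06%) and 5 lower (18.5%). At an unadjusted p under 0.05 in limma there were 21 genes (all genes, 32.8%). None of the 12 called genes overlapped between the groups, so P-SSC 4 necessarily lay outside the graft range, on the P-SSC side. P-SSC 4 is among the libraries that gave these calls, so its position is not a separate check within a high GC-rich level. With the GC-rich level as a term in the fit, 7 genes were called.

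Graft BM-MSCs differed from BM-MSCs in 5 genes, where 7.67% of all genes tested were called. Cxcl14, Il6 and Il17d were higher in the graft (all genes, 2.61%), and Cx3cl1 and Osm were lower (all genes, 5.06%). Values did not overlap for 9 genes, where 25.0% of all genes did not overlap, with 7 genes higher in the graft (all genes, 10.3%) and 2 lower (14.7%). At an unadjusted p under 0.05 in limma there were 11 genes (all genes, 25.5%). Leaving out 1 library left 3 calls without BM-MSC 1 and 2 without graft 2, graft 4, BM-MSC 2+4 or BM-MSC 3. With the GC-rich level as a term limma called 0 of the 39 genes (edgeR without that term also called 0, and DESeq2 9), a fit in which this comparison rests on the difference of P-SSC 4 from the other P-SSC libraries. The 3 comparisons use the same libraries, so they are not independent of each other, and 18 genes were called in at least 1 of them. Over all genes tested the median log2 difference was -0.47 for the graft against P-SSCs, -0.53 for the graft against BM-MSCs and 0.00 for P-SSCs against BM-MSCs, and over the 39 genes it was 0.00, 0.18 and 0.06 in the same order, the same with genes at or under 3 reads in 1 group set to their bound.

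**Figure D1:**
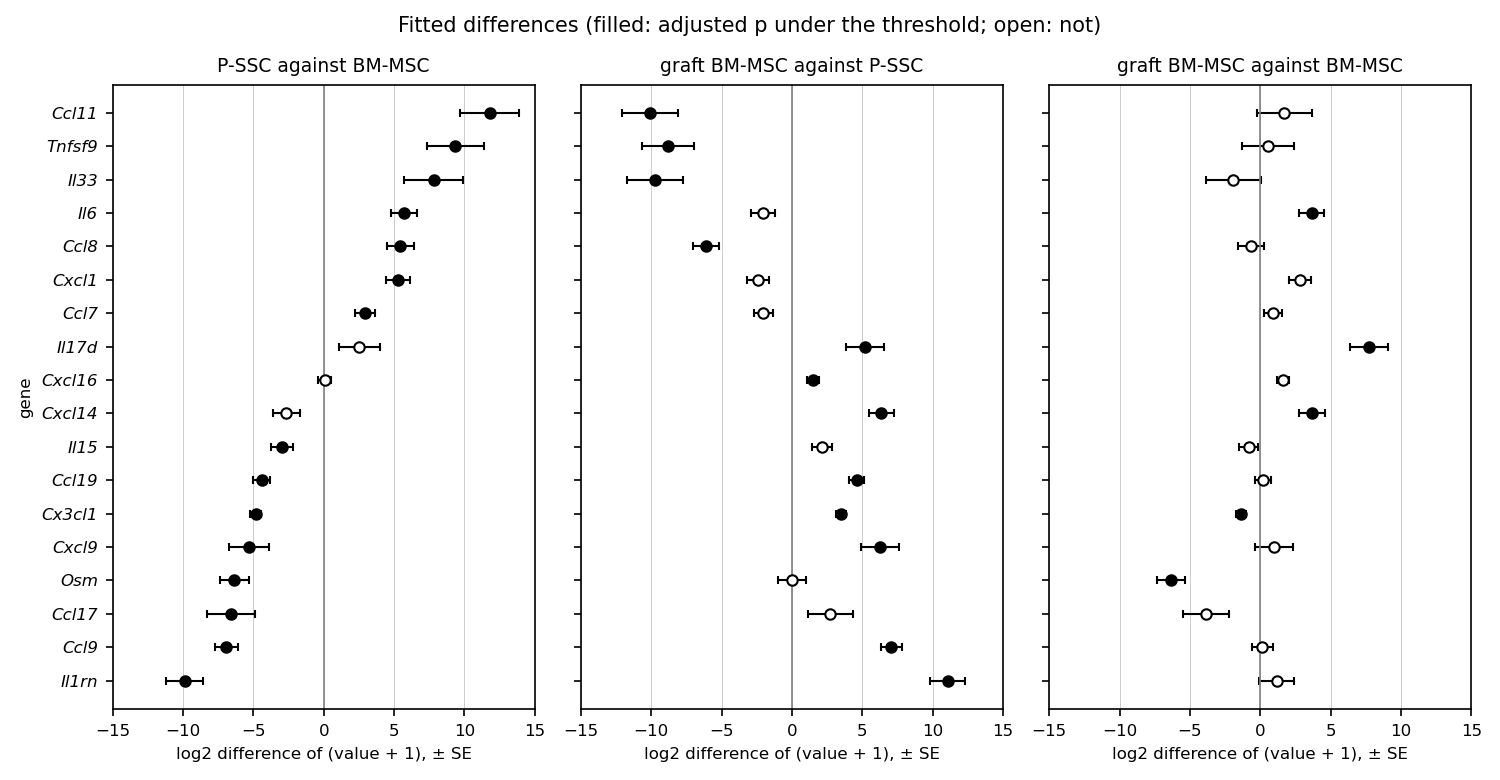
Fitted log2 differences of (normalised reads + 1) for the 18 genes called in at least 1 comparison, with the SE as bars, for P-SSCs against BM-MSCs (left), graft BM-MSCs against P-SSCs (middle) and graft BM-MSCs against BM-MSCs (right). Filled points passed an adjusted p of 0.05 in limma, which is 15, 12 and 5 of the genes shown, and the vertical line marks no difference.

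**Figure D2:**
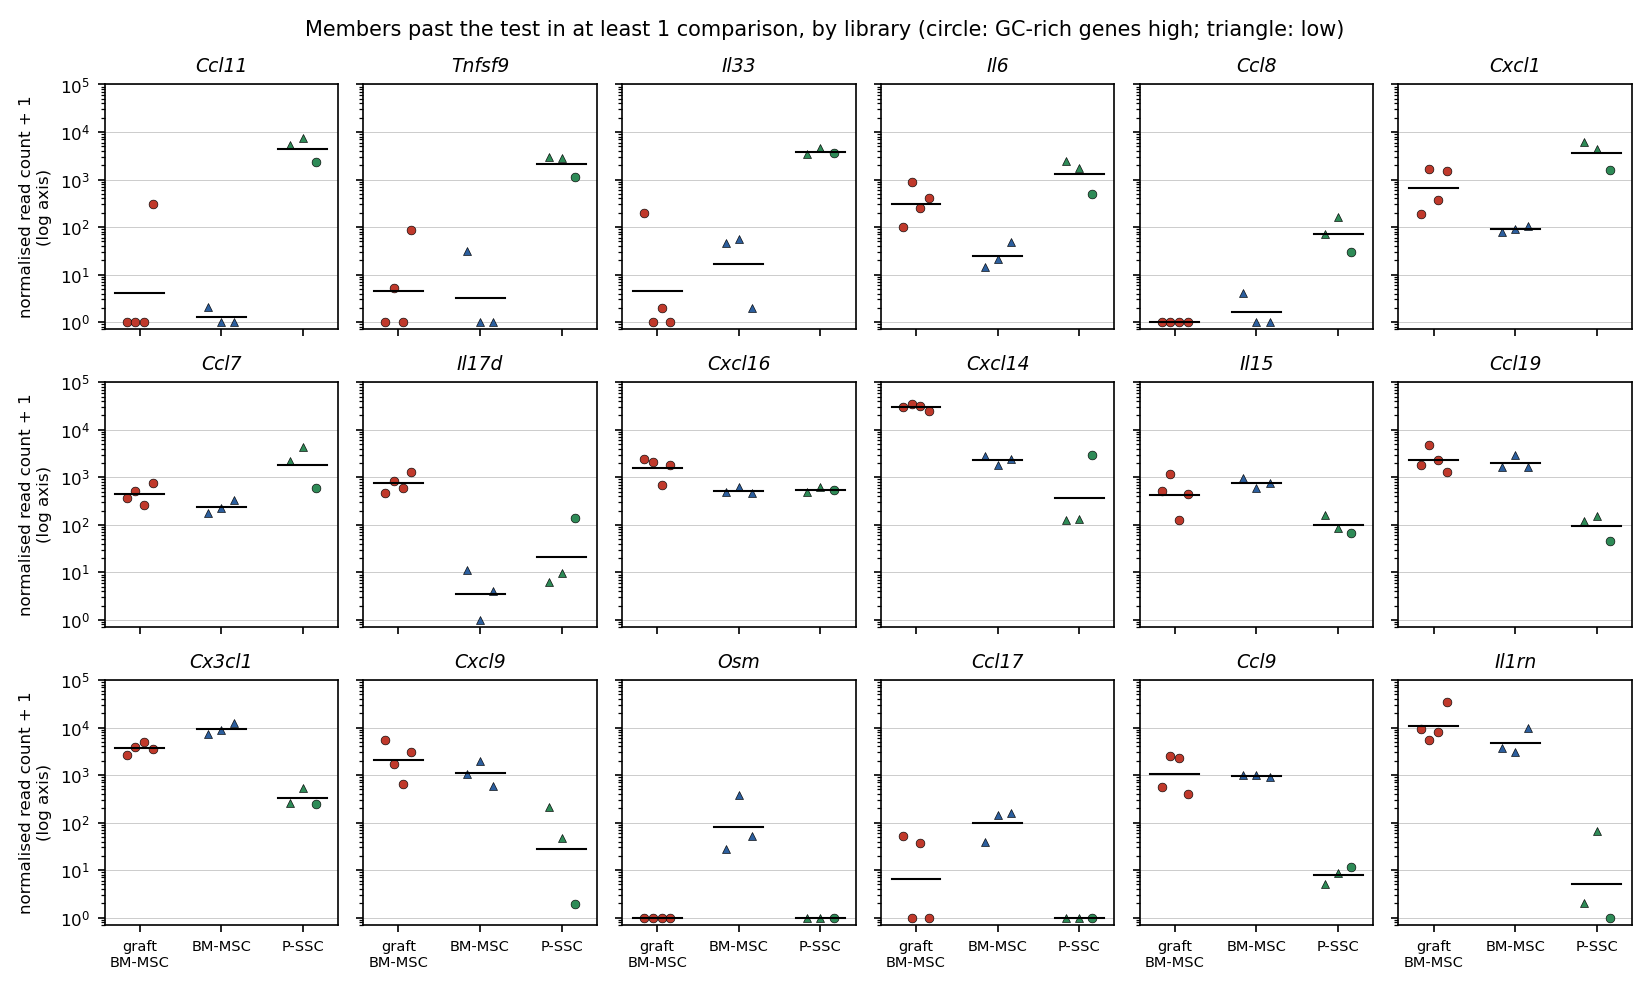
Normalised reads + 1 on a log axis for the same 18 genes in each of the 10 libraries, by group, with circles for libraries of a high GC-rich level, triangles for a low one and a line at the mean of the log values. Ccl11, Tnfsf9, Il33 and Ccl8 stood high in the P-SSC group alone, and Il1rn, Ccl9, Cx3cl1 and Ccl19 stood high in both marrow groups.

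Among the CXC chemokines for neutrophils, which act through the receptor CXCR2, Cxcl1 passed the test. Cxcl1 was at 189, 1698, 366 and 1491 normalised reads in the graft BM-MSC libraries, at 77.3, 90.7 and 103 in BM-MSC and at 6138, 4437 and 1622 in P-SSC. The 3 P-SSC libraries stood above every BM-MSC library, and the graft lay between, with 2 libraries near P-SSC 4 and 2 nearer to BM-MSCs. Cxcl1 was 45.1-fold higher in P-SSCs than in BM-MSCs (log2 difference 5.29 ± 0.83, adjusted p = 0.00191, limma with Benjamini-Hochberg adjustment). The graft did not pass the test against BM-MSCs (log2 difference 2.84 ± 0.78, adjusted p = 0.0523, limma) or against P-SSCs (adjusted p = 0.0528, limma), although no graft value fell within the BM-MSC range. Cxcl5, another ligand of that receptor, was at 0, 385, 0 and 521 normalised reads in the graft BM-MSC libraries, at 23.0, 0 and 0 in BM-MSC and at 1.04, 0 and 0 in P-SSC. Its high values were confined to graft 2 and graft 4, the graft libraries in which Cxcl1 was also highest, and the test was not passed (adjusted p = 0.481 against BM-MSCs, limma). Cxcl2 reached 94.5, 79.0 and 49.4 in P-SSCs and did not pass in any comparison.

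Of the chemokines induced by interferon, which call activated T cells through CXCR3, Cxcl9 and Cxcl10 took different patterns. Cxcl9 was at 5571, 1746, 646 and 3028 normalised reads in the graft BM-MSC libraries, at 1077, 1984 and 602 in BM-MSC and at 216, 47.1 and 0.969 in P-SSC. All 7 marrow libraries exceeded all P-SSC libraries, and within P-SSCs the values fell over a wide range. Cxcl9 was 31.2-fold higher in the graft than in P-SSCs (log2 difference 6.25 ± 1.35, adjusted p = 0.009, limma), which became 20.5-fold without graft 1 and 114-fold without P-SSC 1. Against P-SSCs, BM-MSCs were 13.9-fold higher, but that call (log2 difference -5.31 ± 1.44, adjusted p = 0.0455, limma) was lost in 9 of 10 fits that left out 1 library (adjusted p up to 0.166 without BM-MSC 2+4), the exception being the fit without P-SSC 1, where the fold was 50.8. Cxcl10 was at 1267, 1077, 178 and 1707 normalised reads in the graft BM-MSC libraries, at 285, 604 and 291 in BM-MSC and at 4510.1, 5062 and 86.3 in P-SSC. P-SSC 1 and P-SSC 2+5 were the highest libraries and P-SSC 4 the lowest, and no comparison passed the test (adjusted p from 0.618 to 0.762 over the 3 comparisons, limma).

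Cxcl14, a chemokine that many stromal and epithelial cells make, had the highest mean level per kb of exon of all 45 genes in the graft. Cxcl14 was at 29692, 34364, 31388 and 24951 normalised reads in the graft BM-MSC libraries, at 2867, 1823 and 2435 in BM-MSC and at 124, 131 and 2944 in P-SSC. The 4 graft libraries lay close together and above all the others, and P-SSC 4 stood apart from P-SSC 1 and P-SSC 2+5, 23.1-fold over their mean. Cxcl14 was 28.2-fold higher in the graft than in P-SSCs (log2 difference 6.36 ± 0.90, adjusted p = 0.000741, limma), a call kept in each fit that left out 1 library, and the fold was 236 without P-SSC 4. It was 12.7-fold higher in the graft than in BM-MSCs (log2 difference 3.68 ± 0.90, adjusted p = 0.0355, limma). This second call was lost in 7 of 10 fits that left out 1 library (adjusted p up to 0.133 without BM-MSC 2+4), each graft and each BM-MSC library among them. With the GC-rich level as a term its sign turned (log2 difference -0.84 ± 0.37, adjusted p = 0.576, limma). GC correction of each library kept the call and its direction (log2 difference 4.58, adjusted p = 0.00801, limma). The fit without P-SSC 4 kept the call too (adjusted p = 0.000134, limma). P-SSC 4 is in neither group compared, so leaving it out changes the estimate of the spread and not the log2 difference of 3.68. That fit cannot tell the GC-rich level apart from the graft. Within libraries of a high GC-rich level, the graft mean exceeded P-SSC 4 by 3.34 on the log2 scale. How far the GC-rich level contributes to Cxcl14 was not tested.

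**Figure D3:**
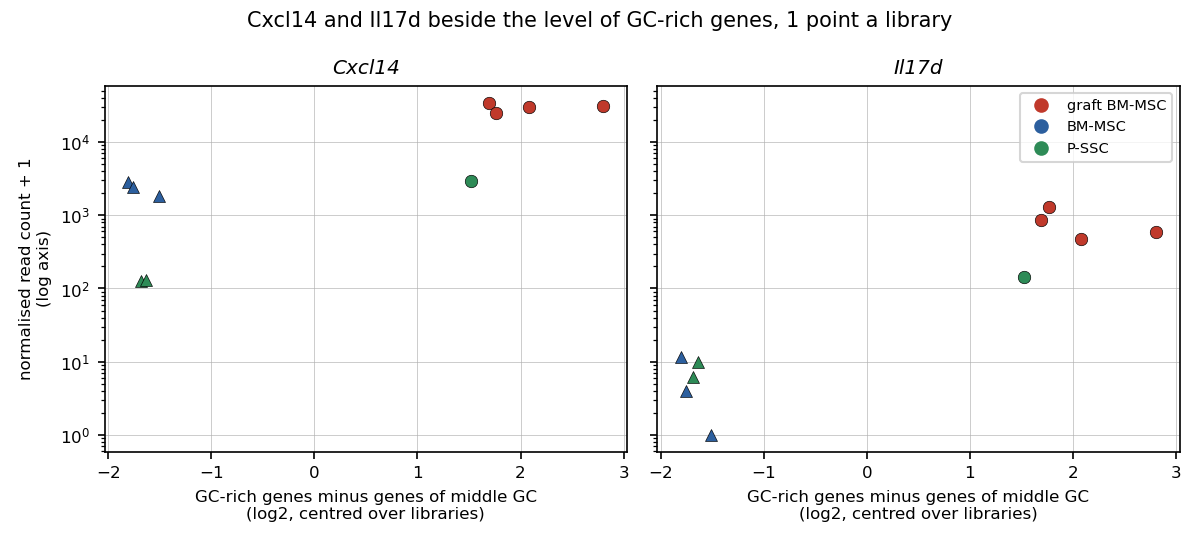
Normalised reads + 1 (log axis) of Cxcl14 (left) and Il17d (right) in each library against the median of GC-rich genes minus that of genes of middle GC (log2, centred over libraries). P-SSC 4, the green circle, shares the right side with the 4 graft libraries and stands above P-SSC 1 and P-SSC 2+5 for both genes, while Cxcl14 in BM-MSCs (blue) was near the level of P-SSC 4.

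Il17d, a member of the IL-17 family, showed the same split among P-SSC libraries. Il17d was at 478, 849, 594 and 1289 normalised reads in the graft BM-MSC libraries, at 10.4, 0 and 2.96 in BM-MSC and at 5.19, 8.92 and 142 in P-SSC. All graft values exceeded all others, BM-MSCs were at or near 0, and P-SSC 4 was 20.1-fold over the mean of the other P-SSC libraries. The graft was 179.7-fold higher than BM-MSCs (log2 difference 7.71 ± 1.35, adjusted p = 0.00831, limma) and 15.5-fold higher than P-SSCs (log2 difference 5.18 ± 1.35, adjusted p = 0.0235, limma). The fold against P-SSCs was 114 without P-SSC 4. The call against P-SSCs was lost without graft 4, P-SSC 1 or P-SSC 2+5 (adjusted p up to 0.109). With the GC-rich level as a term neither call was kept (log2 difference 3.53 ± 2.00, adjusted p = 0.75 against BM-MSCs and log2 difference 2.39 ± 1.55, adjusted p = 0.495 against P-SSCs, limma). GC correction kept both (log2 difference 7.83, adjusted p = 0.00575 against BM-MSCs and 5.59, adjusted p = 0.0103 against P-SSCs, limma). The contribution of the GC-rich level was not tested. Il17b was detected in BM-MSC 1 alone.

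Cx3cl1 (fractalkine, which binds the receptor of monocytes and NK cells) was the gene called in all 3 comparisons. Cx3cl1 was at 2674, 3828, 4855 and 3505 normalised reads in the graft BM-MSC libraries, at 7317, 9074 and 12552 in BM-MSC and at 254, 544 and 250.1 in P-SSC. The groups did not overlap, with BM-MSCs highest, the graft next and P-SSCs lowest. BM-MSCs were 27.6-fold above P-SSCs (log2 difference -4.85 ± 0.36, adjusted p = 2.53e-05, limma), and the graft was 10.6-fold higher than P-SSCs (log2 difference 3.47 ± 0.34, adjusted p = 9.01e-05, limma). Both calls were kept in each fit that left out 1 library. Between graft and BM-MSCs the difference was smaller (log2 difference -1.37 ± 0.34, adjusted p = 0.0376, limma), and that call was lost in 6 of 10 fits that left out 1 library (adjusted p up to 0.158 without BM-MSC 3), among them graft 1, 2 and 4 and each BM-MSC library. It was also lost at a like size after median centring (log2 difference -1.54), quantile normalization (-1.21) and in edgeR (-1.39), and at a smaller size after GC correction (-0.55) and with the GC-rich level as a term (-0.80). DESeq2 kept it (-1.38).

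Cxcl16, a transmembrane chemokine that binds CXCR6, was at 2371, 2051, 685 and 1787 normalised reads in the graft BM-MSC libraries, at 478, 638 and 464 in BM-MSC and at 502, 610.2 and 527 in P-SSC. Each graft library stood above all steady-state libraries, and graft 3 was the nearest to them. The graft was 3.15-fold higher than P-SSCs (log2 difference 1.52 ± 0.43, adjusted p = 0.0331, limma), a call kept only in the fits without graft 3 or BM-MSC 2+4 and lost in the other 8 (adjusted p up to 0.111). Against BM-MSCs the test was not passed (adjusted p = 0.0504, limma). Cxcl13, which draws B cells through CXCR5, was at 11546, 235, 115 and 2542 normalised reads in the graft BM-MSC libraries, at 30.3, 30.6 and 83.8 in BM-MSC and at 1223, 2760.4 and 644 in P-SSC. Graft 1 was the highest library, the graft spanned a wide range, and BM-MSCs lay below every library of the other groups, yet no comparison passed (adjusted p from 0.0697 to 0.845 over the 3 comparisons, limma).

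Of the CC chemokines, the neighbours Ccl2, Ccl7, Ccl11 and Ccl8 lie within chr11:82035571-82116799 (GENCODE M21 on GRCm38), and their group means were highest in P-SSCs. Ccl2 and Ccl7 attract monocytes through CCR2, and Ccl11 (eotaxin) attracts eosinophils through CCR3. Ccl11 was at 0, 0, 0 and 301 normalised reads in the graft BM-MSC libraries, at 1.04, 0 and 0 in BM-MSC and at 5268, 7359 and 2325 in P-SSC. It was listed at 0 in 5 of the 7 marrow libraries, at 1 read in BM-MSC 1, and above that in graft 4. Ccl11 was higher in P-SSCs than in BM-MSCs, which held 1 read in all (log2 difference 11.79 ± 2.12, adjusted p = 0.00465, limma), and 66.2-fold lower in the graft than in P-SSCs (log2 difference -10.07 ± 1.98, adjusted p = 0.00532, limma). Without graft 4 the other graft libraries were at 0, at least 2064-fold lower. Both calls were kept in each fit that left out 1 library. The call of the graft against P-SSCs was lost with the GC-rich level as a term (log2 difference -9.12 ± 3.05, adjusted p = 0.132, limma), in edgeR and in DESeq2.

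Ccl8 was at 0, 0, 0 and 0 normalised reads in the graft BM-MSC libraries, at 3.13, 0 and 0 in BM-MSC and at 71.7, 159 and 29.1 in P-SSC. It was listed at 0 in 6 of 7 marrow libraries and present in all 3 P-SSC libraries. It was higher in P-SSCs than in BM-MSCs, which held 3 reads in all (log2 difference 5.46 ± 0.99, adjusted p = 0.00499, limma), a call lost in edgeR and in DESeq2. In the graft it was at least 35.2-fold lower than in P-SSCs, against a floor of 3 reads per library (log2 difference -6.14 ± 0.93, adjusted p = 0.00111, limma), a bound of 20.5 without P-SSC 2+5. Ccl7 was at 367, 503, 261 and 750.0 normalised reads in the graft BM-MSC libraries, at 178, 226 and 324 in BM-MSC and at 2240.5, 4308 and 587 in P-SSC. P-SSCs were 9.81-fold above BM-MSCs (log2 difference 2.92 ± 0.69, adjusted p = 0.0231, limma), a call lost in 5 of 10 fits that left out 1 library (adjusted p up to 0.0954 without P-SSC 1), namely each of BM-MSC 1, 2+4 and 3, P-SSC 1 and P-SSC 2+5. The fold was 5.83 without P-SSC 2+5. P-SSC 4 lay within the graft range of Ccl7. Ccl2, the main monocyte attractant, was at 994, 1153, 454 and 1358 normalised reads in the graft BM-MSC libraries, at 544, 1231 and 1341 in BM-MSC and at 1263, 3253 and 687 in P-SSC. The 3 groups overlapped, and no comparison passed (adjusted p from 0.487 to 0.962 over the 3 comparisons, limma), so Ccl2 did not follow its neighbours Ccl11 and Ccl8 at this spread.

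Further along the chromosome, chr11:83525778-83664683 holds Ccl5, Ccl9, Ccl6, Ccl3 and Ccl4. Ccl9 had the opposite pattern to Ccl11. Ccl9 was at 566, 2569, 2235 and 399 normalised reads in the graft BM-MSC libraries, at 1004, 1019.8 and 891 in BM-MSC and at 4.15, 7.64 and 10.7 in P-SSC. All marrow libraries exceeded all P-SSC libraries, and the graft spanned the BM-MSC values. The graft was 193-fold higher than P-SSCs (log2 difference 7.05 ± 0.74, adjusted p = 0.000132, limma), BM-MSCs were 129.7-fold higher than P-SSCs (log2 difference -6.92 ± 0.79, adjusted p = 0.000314, limma), and both calls were kept in each fit that left out 1 library. Graft and BM-MSCs did not pass the test (log2 difference 0.14 ± 0.74, adjusted p = 0.934, limma). Ccl6 was at 76.3, 0, 159 and 0 normalised reads in the graft BM-MSC libraries, at 92.9, 196 and 263 in BM-MSC and at 0, 36.9 and 0 in P-SSC and did not pass (adjusted p = 0.2 between P-SSCs and BM-MSCs, limma). Ccl5 was at 160.4, 0, 8.06 and 375 normalised reads in the graft BM-MSC libraries, at 0, 39.0 and 0 in BM-MSC and at 0, 16.6 and 0 in P-SSC, with high values in graft 1 and graft 4, and did not pass. Ccl3 and Ccl4 were not tested. Ccl6 and Ccl9 are also made by myeloid cells, and the neutrophil markers were high in the same groups, by the sums given above. In the 2 graft libraries with the lowest neutrophil sums, graft 1 and graft 4, Ccl9 was at 566 and 399. It was highest in graft 2 (2569), at a sum of 11926.5, and at 2235 in graft 3, at a sum of 110589. Within BM-MSCs, Ccl9 was lowest (891) in BM-MSC 3, which had the highest sum of that group (87895). The part of such cells in Ccl9 was not tested.

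**Figure D4:**
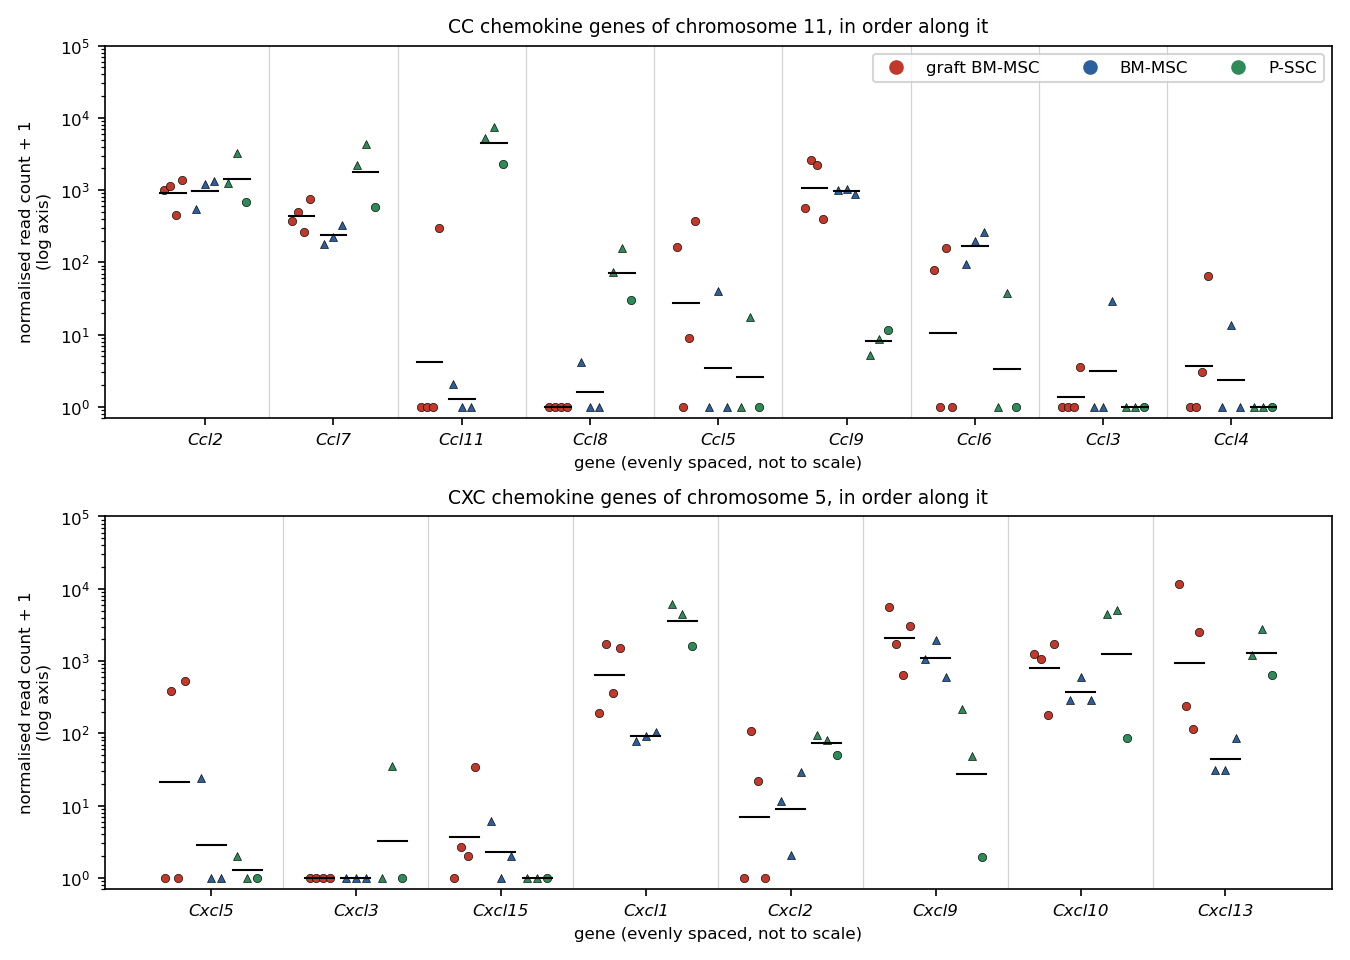
Normalised reads + 1 (log axis) in each library for 9 CC chemokine genes in their order along chromosome 11 (top) and 8 CXC chemokine genes along chromosome 5 (bottom), evenly spaced, with circles and triangles for a high and a low GC-rich level and lines at the mean of the log values. Along chromosome 11, Ccl7, Ccl11 and Ccl8 were highest in P-SSCs and Ccl9, the next but one after Ccl8, was lowest there, and along chromosome 5 Cxcl1 and Cxcl9 were called in opposite directions between P-SSCs and BM-MSCs.

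Of the CC chemokines for lymphocytes, Ccl19 and Ccl17 passed the test. Ccl19 draws T cells and dendritic cells through CCR7. Ccl19 was at 1850.2, 4857, 2313 and 1321 normalised reads in the graft BM-MSC libraries, at 1622, 3006 and 1678 in BM-MSC and at 118, 152 and 44.6 in P-SSC. All marrow libraries stood above all P-SSC libraries, and graft and BM-MSCs overlapped. The graft was 24.7-fold higher than P-SSCs (log2 difference 4.61 ± 0.54, adjusted p = 0.000248, limma), BM-MSCs were 20.0-fold higher than P-SSCs (log2 difference -4.42 ± 0.58, adjusted p = 0.000646, limma), and both calls were kept in each fit that left out 1 library. Graft and BM-MSCs did not pass (log2 difference 0.18 ± 0.54, adjusted p = 0.863, limma). Ccl19 has near-identical copies in the mouse genome, so its reads may be split in ways that leave its level uncertain. Ccl17 was at 50.3, 0, 36.3 and 0 normalised reads in the graft BM-MSC libraries, at 38.6, 141 and 159 in BM-MSC and at 0, 0 and 0 in P-SSC. It was listed at 0 in each P-SSC library and in graft 2 and graft 4, and BM-MSCs were at least 34.4-fold above the floor of 3 reads. That call (adjusted p = 0.0376, limma) was lost on leaving out any BM-MSC or P-SSC library (adjusted p up to 0.122 without BM-MSC 3). Ccl25 overlapped between all groups.

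In the IL-1 family, Il1rn and Il33 were called in opposite directions between P-SSCs and both marrow groups. Il1rn encodes the receptor antagonist that blocks IL-1 signalling. Il1rn was at 9393, 5371, 8035 and 35052 normalised reads in the graft BM-MSC libraries, at 3753, 3090.0 and 9739.5 in BM-MSC and at 1.04, 64.97 and 0 in P-SSC. All marrow libraries held 3090.0 normalised reads or more, graft 4 was the highest, and P-SSC 2+5 was the one P-SSC library well above 1 read. The graft was 657-fold higher than P-SSCs (log2 difference 11.06 ± 1.25, adjusted p = 0.000197, limma), and BM-MSCs were 251-fold higher than P-SSCs (log2 difference -9.88 ± 1.33, adjusted p = 0.000759, limma). The folds became 345 without graft 4 and 156 without BM-MSC 3, and without P-SSC 2+5 the P-SSCs held 1 read in all. Both calls were kept in each fit that left out 1 library, with the GC-rich level as a term, in edgeR and in DESeq2. Graft and BM-MSCs overlapped (log2 difference 1.18 ± 1.25, adjusted p = 0.58, limma).

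Il1b, the agonist that Il1rn opposes, was at 0, 38.8, 494 and 95.8 normalised reads in the graft BM-MSC libraries, at 73.1, 30.6 and 977 in BM-MSC and at 0, 1.27 and 0 in P-SSC. Its highest values were in BM-MSC 3 and graft 3, which also had the highest neutrophil marker sums (87895 and 110589), and no comparison passed (adjusted p from 0.0973 to 0.6 over the 3 comparisons, limma). Within the graft Il1rn was highest in graft 4, with a neutrophil sum of 6939. Within BM-MSCs it was highest, at 9739.5, in BM-MSC 3, which also had the highest sum of that group. Both Il1rn and the sums were lowest in P-SSCs. The part of neutrophils in either gene was not tested.

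**Figure D5:**
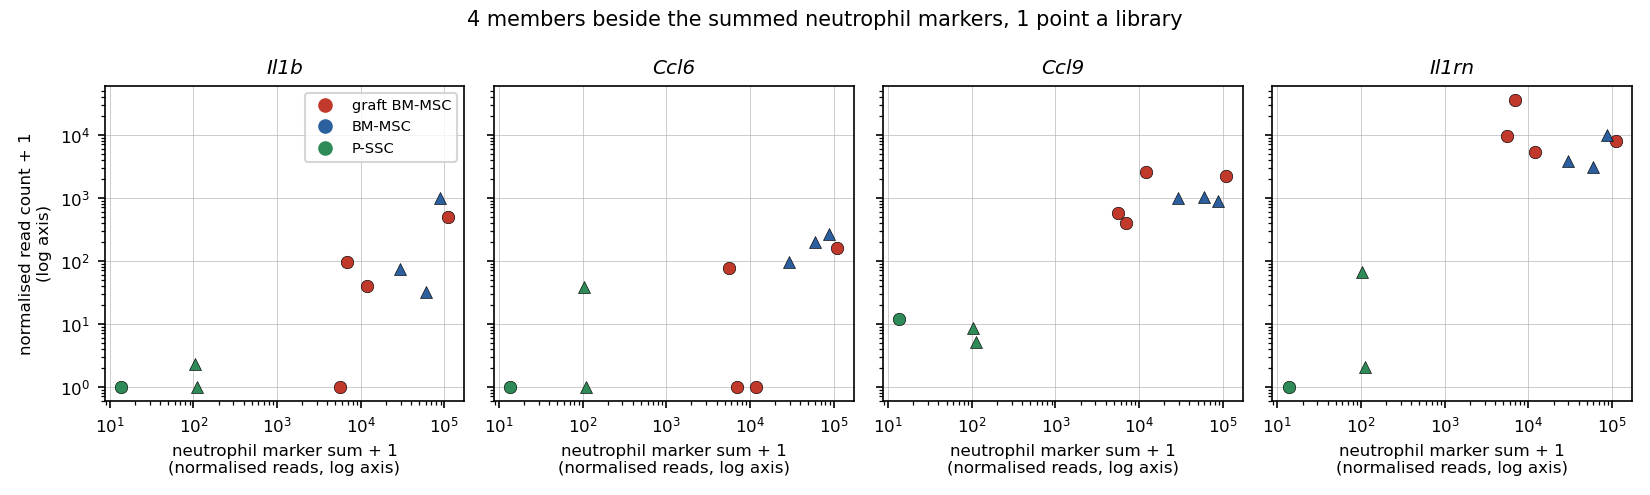
Normalised reads + 1 of Il1b, Ccl6, Ccl9 and Il1rn against the sum of 9 neutrophil markers + 1 in each library, both on log axes, coloured by group. P-SSC libraries lie at sums of 12.6 to 110.1, Il1b was highest in BM-MSC 3 and graft 3 at the right, and Il1rn was highest in graft 4, at a sum of 6939.

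Il33, an alarmin kept in the nucleus until cells are damaged, was at 201, 0, 1.01 and 0 normalised reads in the graft BM-MSC libraries, at 44.9, 53.8 and 0.986 in BM-MSC and at 3442, 4619 and 3543 in P-SSC. All P-SSC libraries were far above the marrow libraries, of which 3 graft libraries and BM-MSC 3 were at or near 0. P-SSCs were 116-fold above BM-MSCs (log2 difference 7.81 ± 2.10, adjusted p = 0.0433, limma), and the graft was 76.5-fold lower than P-SSCs (log2 difference -9.74 ± 1.97, adjusted p = 0.00617, limma). Without graft 1 the graft held 1 read in all. The call against BM-MSCs was lost in 7 of 10 fits that left out 1 library (adjusted p up to 0.165 without BM-MSC 3), among them graft 3 and each BM-MSC and P-SSC library. The call of the graft against P-SSCs was kept in each of these fits, and was lost with the GC-rich level as a term (log2 difference -9.63 ± 3.08, adjusted p = 0.117, limma) and in edgeR, while DESeq2 gave no adjusted p. Il18, which is matured by caspase-1, was at 168, 360.1, 195 and 0 normalised reads in the graft BM-MSC libraries, at 64.8, 89.6 and 84.8 in BM-MSC and at 1990.2, 2981 and 949 in P-SSC. P-SSCs did not overlap with either marrow group, but the test was not passed (log2 difference 4.48 ± 1.84 against BM-MSCs, adjusted p = 0.205, limma), with graft 4 at 0. Il33 is also made by endothelial cells, of which 4 listed markers were in the table and did not share a direction. Cdh5 was at 2.08, 58.6 and 14.5 in P-SSCs and at 0 in every marrow library, and Tek was at 3254 to 6869 in P-SSCs and at most 1.04 elsewhere. Emcn was at 0 in every P-SSC and graft library and at 24.3 to 81.5 in BM-MSCs. Eng was at 1681 to 2014 in P-SSCs, 1532 to 2432 in BM-MSCs and 262 to 935 in the graft. The part of endothelial cells in Il33 was not tested.

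Cytokines that signal through gp130 included Il6 and Osm. Il6 was at 97.2, 895, 248 and 410.0 normalised reads in the graft BM-MSC libraries, at 13.6, 20.0 and 46.4 in BM-MSC and at 2488, 1783 and 487 in P-SSC. P-SSCs were highest, BM-MSCs lowest, and the graft lay above every BM-MSC library and overlapped with P-SSC 4. P-SSCs were 59.5-fold above BM-MSCs (log2 difference 5.73 ± 0.94, adjusted p = 0.00247, limma), a call kept in each fit that left out 1 library, and the fold was 94.4 without BM-MSC 3. The graft was 15.5-fold higher than BM-MSCs (log2 difference 3.66 ± 0.88, adjusted p = 0.0322, limma), and that call was kept only in the fits without graft 1 or P-SSC 4 and lost in the other 8 (adjusted p up to 0.113 without BM-MSC 1). Its fold was 9.44 without graft 2 and 24.5 without BM-MSC 3. With the GC-rich level as a term the difference was larger (log2 difference 5.77) and the call was lost (adjusted p = 0.199, limma). GC correction kept it (4.11, adjusted p = 0.029, limma).

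Osm (oncostatin M, a product of myeloid cells that acts on bone stroma) was at 0, 0, 0 and 0 normalised reads in the graft BM-MSC libraries, at 27.2, 371 and 50.3 in BM-MSC and at 0, 0 and 0 in P-SSC. It was listed at 0 in all graft and all P-SSC libraries. BM-MSCs were at least 60.8-fold above the floor in the graft (adjusted p = 0.00479, limma) and at least 45.6-fold above that in P-SSCs (adjusted p = 0.00244, limma). Without BM-MSC 2+4, the highest library, these bounds were 15.8 and 11.8. The 10 macrophage and monocyte markers summed to 1656 to 14379 in the graft, 4869.8 to 17352 in BM-MSCs and 742 to 2955 in P-SSCs, with 2 of them at 0 in all graft and 2 in all P-SSC libraries. Of these markers 7 were tested, and all 7 had a negative log2 difference of the graft from BM-MSCs. Values did not overlap for 4 (all genes, 25.0%), and 1 was called (14.3%; all genes, 7.67%). The called gene, C1qb, was at 0, 0, 0 and 2.59 in the graft, at 385, 662 and 237 in BM-MSCs and at 0, 228 and 0 in P-SSCs. Adgre1 was at 0 in every graft library and at 90.9, 86.5 and 0.986 in BM-MSCs. Csf1r (0, 0, 282 and 102 in the graft, 205, 19.0 and 0 in BM-MSCs) and Cd14 overlapped between these groups. Lyz2 was the largest part of the sum of these markers in every library. It was at 1373 to 12846 in the graft, 3329 to 16123 in BM-MSCs and 385 to 2191 in P-SSCs. The part of macrophages and of neutrophils in Osm was not tested. Lif was at 154, 0, 0 and 0 normalised reads in the graft BM-MSC libraries, at 15.7, 0 and 0 in BM-MSC and at 117, 104 and 148 in P-SSC, with all P-SSC libraries above all BM-MSC libraries and graft 1 just above the highest P-SSC library, and it did not pass (adjusted p = 0.141 between P-SSCs and BM-MSCs, limma). Lif and Osm are neighbouring genes on chromosome 11. Clcf1 overlapped between the groups.

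Cytokines for lymphocyte growth and the IL-12 family gave 1 call. Il15, which supports NK and memory T cells, was at 514, 1181, 125 and 444 normalised reads in the graft BM-MSC libraries, at 981, 598 and 771 in BM-MSC and at 162, 82.8 and 67.9 in P-SSC. BM-MSCs were 7.52-fold above P-SSCs (log2 difference -2.97 ± 0.76, adjusted p = 0.0332, limma), a call lost in 6 of 10 fits that left out 1 library (adjusted p up to 0.129 without BM-MSC 1): graft 4, each BM-MSC library, P-SSC 2+5 and P-SSC 4. Il12a, the subunit shared by IL-12 and IL-35, was at 99.4, 146, 124 and 222 normalised reads in the graft BM-MSC libraries, at 88.8, 101 and 136 in BM-MSC and at 98.7, 6.37 and 6.79 in P-SSC, and the graft did not overlap with P-SSCs but did not pass (adjusted p = 0.0826, limma). Flt3l, a growth factor of dendritic cells and progenitors, was at 302, 28.7, 249 and 52.6 normalised reads in the graft BM-MSC libraries, at 95.0, 118 and 94.7 in BM-MSC and at 80.0, 59.9 and 35.9 in P-SSC. Il16 was at 142, 0, 158 and 0 normalised reads in the graft BM-MSC libraries, at 92.9, 173 and 114 in BM-MSC and at 108, 33.1 and 545 in P-SSC, with P-SSC 4 the highest library and graft 2 and graft 4 at 0. Neither Flt3l nor Il16 passed in any comparison. Il23a was listed at 312 in graft 2 and at 1 read or none in the other 9 libraries, and Tslp overlapped between all groups.

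Among the TNF ligands Tnfsf9 (4-1BB ligand, a costimulator of T cells) passed the test. Tnfsf9 was at 0, 4.22, 0 and 86.3 normalised reads in the graft BM-MSC libraries, at 30.3, 0 and 0 in BM-MSC and at 2913, 2774 and 1112 in P-SSC. It was high in each P-SSC library and at 0 in 4 of the 7 marrow libraries. P-SSCs were 224-fold above BM-MSCs (log2 difference 9.37 ± 2.00, adjusted p = 0.0126, limma), a call lost without BM-MSC 2+4, BM-MSC 3 or P-SSC 1 (adjusted p up to 0.062). That fold was 149.7 without BM-MSC 2+4 or BM-MSC 3 and at least 740.3 without BM-MSC 1, the only BM-MSC library above 0. The graft was 100.1-fold lower than P-SSCs (log2 difference -8.81 ± 1.87, adjusted p = 0.00811, limma), and this call was kept in each fit that left out 1 library, at a fold of 1612 without graft 4, and lost with the GC-rich level as a term (log2 difference -7.91 ± 2.86, adjusted p = 0.166, limma) and in edgeR, while DESeq2 gave no adjusted p.

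Tnfsf12 (TWEAK, whose receptor is Fn14, encoded by Tnfrsf12a) was at 176, 362, 368 and 220.1 normalised reads in the graft BM-MSC libraries, at 58.5, 55.9 and 79.9 in BM-MSC and at 80.0, 122 and 125 in P-SSC. The 3 groups did not overlap, graft highest and BM-MSCs lowest, and no comparison passed (adjusted p = 0.0829, 0.184 and 0.771 for graft against BM-MSCs, graft against P-SSCs and P-SSCs against BM-MSCs, limma). Tnfsf12 and Tnfsf13 are neighbours whose reads may be shared. Tnfsf13b (BAFF, a survival factor of B cells) was at 654, 0, 167 and 468 normalised reads in the graft BM-MSC libraries, at 128, 54.8 and 266 in BM-MSC and at 208, 389 and 149 in P-SSC and overlapped between all groups. Tnfsf14 was detected in BM-MSC 2+4 and BM-MSC 3 alone.

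Per kilobase of exon the order of the genes differed between the groups. In the graft Cxcl14 had 16474 ± 2155 normalised reads per kb (mean ± SD, n = 4), which was 50.2% of the sum over the 45 genes, and its lowest library exceeded the highest library of every other gene. The next 3, Cxcl13 (3139 ± 4702), Ccl19 (2982 ± 1808) and Il1rn (2613 ± 2498), did not differ beyond their spread. In BM-MSCs Cx3cl1 (2455 ± 678 per kb, n = 3) and Ccl19 (2424 ± 903) led with overlapping values, ahead of Cxcl14 (1300.0 ± 287). In P-SSCs the leading genes were Ccl11 (4607 ± 2337 per kb, n = 3), Ccl7 (2969.6 ± 2327) and Cxcl1 (2168 ± 1216), whose values overlapped. Between 13 and 18 of the 45 genes were at 0 in a graft library, 7 to 12 in a BM-MSC library and 10 to 15 in a P-SSC library, while of all genes 22.6 to 38.3%, 11.5 to 15.9% and 13.3 to 19.0% were at 0.

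Receptors and response genes of these ligands were examined as lists. Of 22 chemokine receptors listed, 12 were in the table and 8 were tested. Called between P-SSCs and BM-MSCs were 3 (37.5%; all genes, 9.15%) and between the graft and P-SSCs 3 (37.5%; all genes, 18.1%), all of them atypical receptors that take up chemokines without G protein signalling. Ackr2, which takes up CC chemokines of inflammation, was at 0, 0, 0 and 0 normalised reads in the graft BM-MSC libraries, at 1.04, 1.05 and 0 in BM-MSC and at 5251, 5978 and 5625 in P-SSC. Ackr2 was high in each P-SSC library and at 1 read or none in each marrow library (log2 difference 11.76 ± 1.05, adjusted p = 7.94e-05 for P-SSCs against BM-MSCs, limma). Ackr4, a scavenger of CCL19, was at 11994, 12679.5, 14954 and 10364 normalised reads in the graft BM-MSC libraries, at 20604, 19566 and 16264 in BM-MSC and at 566, 1256 and 633 in P-SSC, lower in P-SSCs than in BM-MSCs (log2 difference -4.61 ± 0.29, adjusted p = 9.70e-06, limma). Ackr3, which takes up CXCL12, was at 196, 0, 374 and 56.1 normalised reads in the graft BM-MSC libraries, at 575, 207 and 30.6 in BM-MSC and at 47439.7, 49512 and 26254 in P-SSC and higher in P-SSCs (log2 difference 7.99 ± 1.89, adjusted p = 0.0226, limma). Between the graft and BM-MSCs limma called 0 of the 8 (all genes, 7.67%), and 0 had an unadjusted p under 0.05.

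Of 9 receptor genes for gp130 cytokines, all tested, 4 were called between P-SSCs and BM-MSCs (44.4%; all genes, 9.15%; Il6ra, Il11ra1 and Il31ra higher in P-SSCs, Lifr lower) and 5 between the graft and P-SSCs (55.6%; all genes, 18.1%; Lifr higher in the graft, Il6ra, Il11ra1, Il31ra and Il6st lower). Il6ra, the specific receptor chain for IL-6, was at 0, 0, 0 and 0 normalised reads in the graft BM-MSC libraries, at 6.27, 0 and 0 in BM-MSC and at 38.4, 102 and 697 in P-SSC. It was listed at 0 in 6 of 7 marrow libraries, and P-SSC 4 was the highest library. Il11ra1 was at 1875, 1062, 2430.0 and 1737 normalised reads in the graft BM-MSC libraries, at 2717, 3195 and 2590.0 in BM-MSC and at 21709, 18789 and 17366 in P-SSC, and P-SSCs stood above all marrow libraries (log2 difference 2.77 ± 0.29 against BM-MSCs, adjusted p = 0.00019, limma). Lifr, which binds LIF, was at 5201, 2679.9, 2532 and 4485 normalised reads in the graft BM-MSC libraries, at 3658, 4122 and 4364 in BM-MSC and at 432, 266 and 264 in P-SSC with P-SSCs below all marrow libraries (log2 difference -3.69 ± 0.34 against BM-MSCs, adjusted p = 0.000102, limma). Between the graft and BM-MSCs limma called 0 of the 9 (all genes, 7.67%), and 1 had an unadjusted p under 0.05.

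Of 14 receptors and binding proteins for IL-1 and IL-17 listed, 10 were tested. Of these, 2 (20%) were called between P-SSCs and BM-MSCs (all genes, 9.15%) and 2 (20%) between the graft and P-SSCs, near the share of all genes (18.1%). Il1r2, the decoy receptor for IL-1, was at 0, 0, 190.3 and 0 normalised reads in the graft BM-MSC libraries, at 33.4, 34.8 and 237 in BM-MSC and at 4587, 5140.0 and 2240.2 in P-SSC, lower in the graft than in P-SSCs (log2 difference -9.98 ± 1.83, adjusted p = 0.00361, limma). Il18bp, which binds and neutralises IL-18, was at 583, 1369, 330.3 and 569 normalised reads in the graft BM-MSC libraries, at 845, 1279 and 1072 in BM-MSC and at 118, 275 and 127 in P-SSC, lower in P-SSCs than in BM-MSCs (log2 difference -2.70 ± 0.56, adjusted p = 0.0111, limma). Il1r1, the signalling receptor, was lower in P-SSCs than in BM-MSCs (log2 difference -1.39 ± 0.37, adjusted p = 0.0418, limma). Of 13 other interleukin receptors tested, 2 were called between P-SSCs and BM-MSCs (15.4%; all genes, 9.15%; Il2ra higher in P-SSCs, Il12rb1 lower) and 5 between the graft and P-SSCs (38.5%; all genes, 18.1%; Crlf2 and Il10rb higher in the graft, Il2ra, Il15ra and Il20rb lower).

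Of 12 TNF receptors tested, 4 were called between P-SSCs and BM-MSCs (33.3%; all genes, 9.15%), 6 between the graft and P-SSCs (50%; all genes, 18.1%) and 1 between the graft and BM-MSCs (8.33%, near the 7.67% of all genes). Tnfrsf12a, the receptor of TWEAK, was at 451, 304, 143 and 448 normalised reads in the graft BM-MSC libraries, at 141, 167 and 239.7 in BM-MSC and at 1979, 2792 and 1051 in P-SSC. P-SSCs stood above every marrow library (log2 difference 3.33 ± 0.57 against BM-MSCs, adjusted p = 0.00326, limma), while its ligand gene Tnfsf12 was highest in the graft without passing the test. Tnfrsf19 (TROY) was at 3699.8, 3139, 3616 and 2778 normalised reads in the graft BM-MSC libraries, at 10559.5, 7768 and 8465 in BM-MSC and at 311, 231 and 363 in P-SSC. Its groups did not overlap, BM-MSCs were highest, and it was lower in the graft than in BM-MSCs (log2 difference -1.43 ± 0.24, adjusted p = 0.00715, limma). Tnfrsf1a, Tnfrsf21 and Ltbr were also higher in the graft than in P-SSCs, and Tnfrsf10b and Tnfrsf12a lower.

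Of 17 genes of the NF-kB response tested, 2 were called between P-SSCs and BM-MSCs (11.8%; all genes, 9.15%), 3 between the graft and P-SSCs (17.6%; all genes, 18.1%) and 3 between the graft and BM-MSCs (17.6%; all genes, 7.67%). Nfkbiz, an inducible nuclear cofactor of NF-kB, was at 411, 2289, 1793 and 2061 normalised reads in the graft BM-MSC libraries, at 143, 125 and 164 in BM-MSC and at 1093, 808 and 3516 in P-SSC. BM-MSCs were below every other library (log2 difference 3.34 ± 0.71 for P-SSCs and 3.24 ± 0.67 for the graft, adjusted p = 0.0126 and 0.0173, limma). Cxcl1 and Il6 were also lowest in BM-MSCs. Within P-SSCs the order differed, as P-SSC 4 was highest for Nfkbiz and lowest for Cxcl1 (1622) and Il6 (487). A link between Nfkbiz and these genes was not tested. Bcl3 was higher in the graft than in both steady-state groups (log2 difference 2.39 ± 0.66 against P-SSCs and 3.76 ± 0.66 against BM-MSCs, adjusted p = 0.0302 and 0.00831, limma). Ptgs2, the inducible prostaglandin synthase, was at 0, 0, 44.3 and 0 normalised reads in the graft BM-MSC libraries, at 70.0, 69.6 and 46.4 in BM-MSC and at 4250.4, 4815 and 1178 in P-SSC, lower in the graft than in P-SSCs (log2 difference -10.12 ± 1.46, adjusted p = 0.000833, limma). Nfkbie was higher in the graft than in P-SSCs and lower in P-SSCs than in BM-MSCs, and Tnip1 was lower in the graft than in BM-MSCs. Of 9 tested ligands of these families that the symbol rule does not reach, 1 was called between the graft and P-SSCs (11.1%, below the 18.1% of all genes). Called between the graft and BM-MSCs were 0 (all genes, 7.67%), and between P-SSCs and BM-MSCs 0 (all genes, 9.15%). The called gene, Csf1, was higher in the graft than in P-SSCs (log2 difference 2.01 ± 0.42, adjusted p = 0.00792, limma), with P-SSC libraries at 2308, 2049.6 and 8529.

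The 6 genes not tested were Ccl3, Ccl4, Cxcl3, Cxcl15, Il17b and Tnfsf10, none above 63.0 normalised reads in any library. A further 7 genes were tested without a call and with no group mean of 100 (Ccl25, Cxcl2, Il23a, Tnfsf13, Tnfsf14, Clcf1 and Tslp). With 14 genes named for a group mean of at least 100 and not for a call, these complete the 45.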

How the data were processed

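RNA-seq was performed on sorted CD51+CD200+ cells of graft BM-MSCs (4 libraries), BM-MSCs (3) and P-SSCs (3). Per the methods, each replicate held RNA of distinct mice. Whether libraries of different groups share a mouse is not stated. The p-values measure the spread between libraries, which holds that between mice and, in P-SSCs, the GC-rich split (1.52 in P-SSC 4, -1.68 and -1.64 in P-SSC 1 and 2+5). Per the labels, reads were aligned with STAR and counted per gene with featureCounts. The labels name the build GRCm39 and STAR 2.5 and the methods GRCm38 and another STAR version, so coordinates here come from GENCODE M21 by gene ID. The deposited values are a signal that the authors made by dividing each gene's reads by 1 size factor per library, here called normalised reads. In each library 100% of the values came out as whole reads (tolerance 0.05 of a read), with 15415421 to 25223295 reads per library, where 3 reads are 1.69 to 3.82 normalised reads. This floor covers counting error only.

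Tests used limma 3.58.1 (R 4.3.3) with a trended variance on log2(normalised reads + 1), fitted on all 10 libraries over the 13644 of 15078 genes with a mean of at least 10, with Benjamini-Hochberg adjustment over all of them. Fold changes are ratios of group means. The 1 added before the log makes log2 differences of low genes smaller. Where some libraries of a group are at 0, the log2 difference can instead exceed what the fold gives. An example is Ccl11 in the graft against P-SSCs (66.2-fold lower, log2 difference -10.07). Alternatives were edgeR 4.0.16 (quasi-likelihood) and DESeq2 1.42.0 on the recovered reads, another pseudocount, other filters and scalings, correction for GC, the GC-rich level or the replicate number as a term, and leaving out each library. Of all genes, edgeR called 1531 and DESeq2 2919 between graft and P-SSCs, 316 and 1948 between graft and BM-MSCs, and 619 and 1526 between the steady-state groups. The fits were run on simulated counts without a GC-rich split, so that run says nothing about how the split affects the calls. Libraries with the same number in different groups did not deviate together (correlations -0.019 to 0.030 over 5 pairs), so the numbers were not taken to pair them. Genes were named if called in a comparison or if a group mean reached 100. The members and lists were chosen with earlier results of these data known.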

Additional observations from a re-analysis of the deposited data

Results flagged for a closer look

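Of 30 genes checked in the 4 graft libraries, 5 had a library far from the other 3 (16.7%), 3 of them in graft 4 and 2 in graft 1. The check used normalised reads, not the log scale of the tests. Its chance rate of about 1 in 20 groups assumes normally distributed values, so 16.7% cannot be read as an excess over chance. Whether the same libraries stand apart on the log scale was not tested. Ccl11 was at 301 in graft 4 and at 0 in the others. Il33 was at 201 in graft 1 and at 1.01 or less in the others. Il1rn was at 35052 in graft 4, and the next highest graft library was at 9393. Lif was at 154 in graft 1 and at 0 in the others. Tnfsf9 was at 86.3 in graft 4 and at 4.22 or less in the others. For Ccl11, Il33 and Tnfsf9 these values stayed below every P-SSC library. For Lif the value of graft 1 lay just above the P-SSC libraries, of which the highest was at 148.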

How the results depend on the processing

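Of 32 calls over the 3 comparisons, 21 were kept in each of the 10 fits that left out 1 library. Leaving out 1 library gave 10 to 13 calls for the graft against P-SSCs (12 with all), 2 to 7 for the graft against BM-MSCs (5 with all, with 3 without BM-MSC 1 and 2 without graft 2, graft 4, BM-MSC 2+4 or BM-MSC 3) and 9 to 17 for P-SSCs against BM-MSCs (15 with all, with 9 without BM-MSC 2+4 or BM-MSC 3). With the GC-rich level as a term the calls were 7 for the graft against P-SSCs and 0 for the graft against BM-MSCs, and the log2 difference of Cxcl14 between graft and BM-MSCs turned to -0.84, while it was 4.58 after GC correction. Median centring left 3 calls for the graft against BM-MSCs. edgeR called 0 there and 8 for P-SSCs against BM-MSCs, and DESeq2 called 9 for the graft against BM-MSCs. Of the 32 calls, edgeR kept 16, and DESeq2 kept 26, lost 2 and gave no adjusted p for 4 (Il33 and Tnfsf9, against P-SSCs in the graft and between P-SSCs and BM-MSCs). The median log2 difference of all genes moved to 0.28 and 0.23 for the graft against P-SSCs and BM-MSCs after GC correction. The causes of these changes were not tested.

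With the replicate number as a block, though the numbers were not found to pair the libraries, the calls were 3 for the graft against P-SSCs, 0 for the graft against BM-MSCs and 2 for P-SSCs against BM-MSCs. The GC-rich level cannot be told apart from the graft in the comparison with BM-MSCs, since no BM-MSC library had a high level. Genes at or under 3 reads in a group have a fold that is a lower bound only.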
